A study of Mus musculus with 6 samples.

Results

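Mitosis and spindle genes are a set of 40 genes, listed by name, that were looked up among the 41669 genes of the deposited count table and read in all 6 libraries. All 40 were found and all 40 were among the 12172 genes that passed the filter on low counts. The set holds the mitotic cyclins with Cdk1, the spindle checkpoint, the Polo and Aurora kinases, kinetochore proteins, mitotic kinesins, the cytokinesis machinery, condensin and the proliferation markers Mki67 and Top2a. Levels are given as CPM, a gene's share of its library's total count on the usual per-library base of that unit.

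The study set female against male NZB/W F1 mice, a cross in which a disease resembling lupus arises, and read the RNA of their spleen B cells. The females (3 libraries, females 1 to 3) and the males (3 libraries, males 1 to 3) all had lupus-like disease at the late stage. B cells of both sexes were enriched on a column by positive selection and kept in culture for 24 h with CpG, short DNA that drives B cells to divide through Toll-like receptor 9. There was no unstimulated sample and no healthy strain among the 6 libraries, and the sources used here give no ages.

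A dividing cell makes its mitotic machinery late in the cycle. Cyclin A and cyclin B switch on CDK1 at the entry into mitosis, Polo and Aurora kinases build the bipolar spindle, and the kinetochores of each chromosome catch the spindle fibres under the watch of the spindle checkpoint. When the checkpoint is satisfied, the anaphase-promoting complex destroys cyclin B and securin, the chromatids part, and a central spindle guides the cut between the daughter cells. Many of these genes share a transcriptional programme of the G2 and M phases that is driven by B-MYB, FOXM1 and the MuvB complex, which reaches DNA at a promoter element known as the cell cycle genes homology region (CHR), often close to CCAAT boxes bound by NF-Y.

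Promoters of 6 members, 250 bases before and 50 bases from the transcription start, are printed. Ccnb2, Kif4, Cdk1 and Top2a are shown as members that varied together across mice, Birc5 as one that did so with neither motif, and Smc2 as one that kept apart. Each is written 5′ to 3′ on the strand of its gene from RefSeq, build GRCm38.p6, with CHR letters (TTTGAA or TTCGAA) and CCAAT boxes in capitals. On the opposite strand these read TTCAAA and ATTGG, and TTCGAA reads the same on both.
Ccnb2, chr9:70421505-70421804, minus strand: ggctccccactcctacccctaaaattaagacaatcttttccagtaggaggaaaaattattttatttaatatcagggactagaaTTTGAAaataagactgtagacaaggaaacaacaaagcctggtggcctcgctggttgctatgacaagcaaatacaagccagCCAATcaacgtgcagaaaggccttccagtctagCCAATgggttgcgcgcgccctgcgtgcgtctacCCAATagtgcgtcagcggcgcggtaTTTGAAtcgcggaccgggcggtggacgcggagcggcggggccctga
Kif4, chrX:100625815-100626114, plus strand: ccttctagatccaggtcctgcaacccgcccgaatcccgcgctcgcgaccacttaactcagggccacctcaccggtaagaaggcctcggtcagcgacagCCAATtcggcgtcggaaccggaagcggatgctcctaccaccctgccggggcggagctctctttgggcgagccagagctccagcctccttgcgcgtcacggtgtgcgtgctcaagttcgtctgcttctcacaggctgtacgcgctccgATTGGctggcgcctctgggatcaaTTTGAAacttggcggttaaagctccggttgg
Cdk1, chr10:69352863-69353162, minus strand: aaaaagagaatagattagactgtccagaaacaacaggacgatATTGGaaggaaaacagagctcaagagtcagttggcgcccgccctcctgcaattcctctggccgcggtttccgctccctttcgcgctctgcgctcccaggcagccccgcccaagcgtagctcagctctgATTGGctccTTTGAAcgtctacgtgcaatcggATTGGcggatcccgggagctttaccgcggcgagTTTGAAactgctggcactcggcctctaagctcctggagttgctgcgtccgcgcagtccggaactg
Top2a, chr11:99024140-99024439, minus strand: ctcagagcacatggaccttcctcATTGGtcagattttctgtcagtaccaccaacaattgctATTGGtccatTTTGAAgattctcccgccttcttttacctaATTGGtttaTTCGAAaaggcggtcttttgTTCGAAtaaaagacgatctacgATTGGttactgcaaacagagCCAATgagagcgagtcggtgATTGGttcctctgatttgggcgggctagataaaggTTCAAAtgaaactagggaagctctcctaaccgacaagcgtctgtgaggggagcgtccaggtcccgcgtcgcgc
Birc5, chr11:117848987-117849286, plus strand: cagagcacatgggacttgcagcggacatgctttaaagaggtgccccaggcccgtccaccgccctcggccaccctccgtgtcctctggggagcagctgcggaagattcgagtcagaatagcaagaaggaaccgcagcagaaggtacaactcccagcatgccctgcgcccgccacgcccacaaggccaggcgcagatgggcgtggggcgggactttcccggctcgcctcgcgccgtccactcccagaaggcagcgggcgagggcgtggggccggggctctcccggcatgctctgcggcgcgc
Smc2, chr4:52438971-52439270, plus strand: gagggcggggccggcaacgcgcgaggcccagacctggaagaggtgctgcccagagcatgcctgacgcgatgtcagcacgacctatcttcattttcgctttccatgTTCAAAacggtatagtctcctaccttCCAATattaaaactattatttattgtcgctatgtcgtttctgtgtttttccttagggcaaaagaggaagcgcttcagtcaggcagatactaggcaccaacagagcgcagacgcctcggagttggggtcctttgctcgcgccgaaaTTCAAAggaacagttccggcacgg

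Of the 40 members, 32 had a promoter in the RefSeq table, and a gene listed with several starts counts as holding a motif where any of them does. A CHR was found on either strand in 24 of these 32 (75.0%), against 21.7% of 27025 genes with a promoter of the same length and 16.8% of the 8543 such genes that were tested here. CCAAT was found in 24 of 32 (75.0%), against 41.1% of all genes, and both motifs in 22 of 32 (68.8%), against 8.61%. In Ccnb2, which encodes cyclin B2, CCAAT boxes began 87, 54 and 21 bases before the start and a CHR 5 bases into the transcript. Top2a held 4 CHRs and 6 CCAAT boxes, and the X-linked Kif4 held 1 CHR and 2 CCAAT boxes. Neither motif was present in the windows of Birc5, Plk4, Nuf2, Nusap1, Mybl2 or Mad2l1. The E2F sequence TTTCCCGC was present in 1 of 32 members (3.13%), against 1.24% of all genes, and TTTGGCGC in 0 of 32, against 0.585%. A match in letters is a description of the promoter and no measurement of binding.

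The summed level of the 40 genes did not separate the sexes. Their CPM summed to 11178, 8439 and 12088 in females 1 to 3, against 10267, 8578 and 11802 in males 1 to 3. In both sexes 1 mouse lay well below its sex mates, female 2 and male 2, and the sexes overlapped. The female and male means were 10568 and 10216 CPM, and 11253 and 9765 CPM with TMM factors. The order turned where single mice were left out, with 9808 CPM in females against 10216 CPM in males without female 3, and 10568 against 11034 CPM without male 2. The members took 1.06 ± 0.190% of all counts in females and 1.02 ± 0.161% in males (SD, n = 3 each).

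None of the 40 members was called between the sexes. By edgeR's quasi-likelihood test, adjusted over all 12172 genes, 0 members passed a false discovery rate of 0.05 in either direction, beside 7 of all genes tested (0.0575%). At an unadjusted p under 0.05, edgeR gave 0 of 40 members, beside 352 of all 12172 genes (2.89%). DESeq2 gave 0 members, beside 469 of all genes, and limma-voom gave 1, Plk4, beside 395 of all genes. The CPM of the sexes overlapped in 40 of 40 members, while they did not overlap in 1246 of all genes tested (10.2%). The smallest adjusted p of a member was 0.999 (edgeR), and nearly all members shared it. The fitted log2 fold changes, female over male, lay above 0 for 19 members and below 0 for 21, with a median of -0.02 beside 0.00 for all genes tested. That split was 29 above and 11 below without female 2, and 12 above and 28 below without male 2. Scaling by library totals alone, without TMM factors, moved the median of all genes to -0.12 and that of the members to -0.15, with 9 members above 0 and 31 below, so these signs are relative to that shift. Without female 3, a library that stood apart, 0 members were called, 13 lay above 0 and 27 below, and their median was -0.08. For 31 members the change was smaller than its own standard error, whose median was 0.28, so differences of that order were not detectable with 3 mice a sex. A p that misses the threshold does not show that the sexes are alike. In bulk RNA, fewer dividing cells and less message per dividing cell cannot be told apart.

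**Figure D1:**
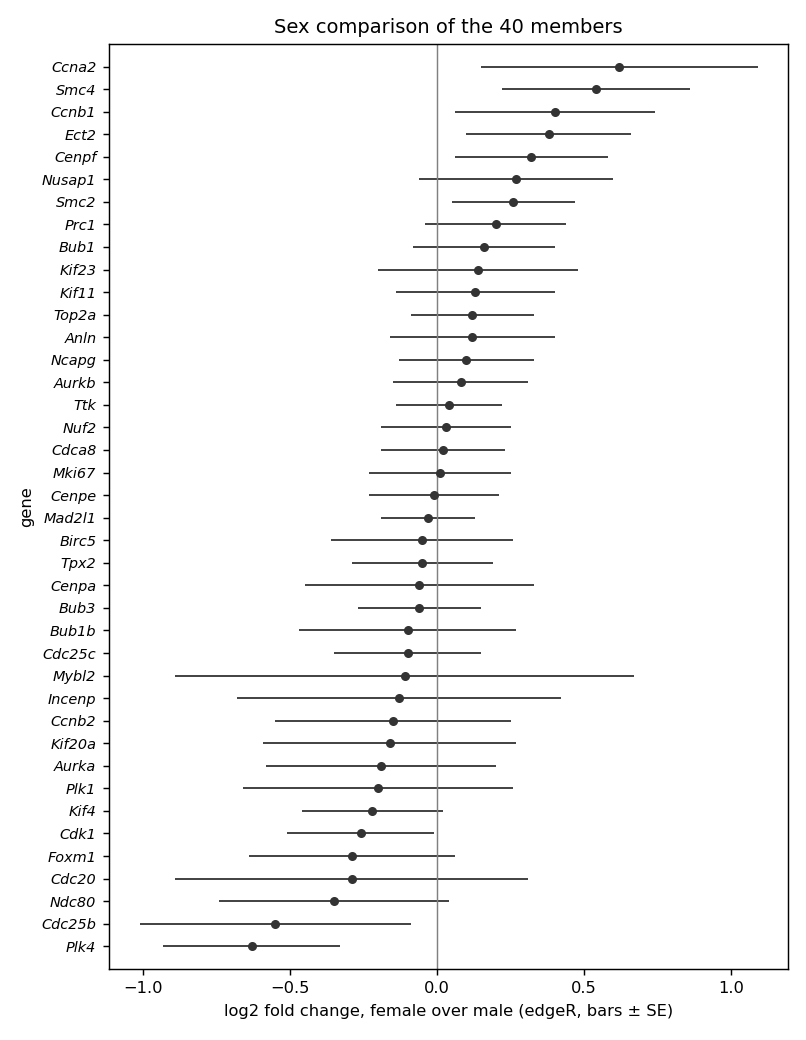
Log2 fold change of each of the 40 members, female over male, from edgeR; points are estimates and bars ± 1 standard error. The estimates run from 0.62 (Ccna2) at the top to -0.63 (Plk4) at the bottom, on both sides of 0.

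The 6 libraries held 24089561 to 35659883 counts, which puts the limit that 3 counts allow at 0.0841 to 0.125 CPM. The sex labels held in all 6: Xist had 5785 to 7149 CPM in females and 1.11 to 2.92 CPM in males, and the Y-linked Ddx3y 0.353 to 1.20 CPM in females and 132 to 261 CPM in males. The scaling (TMM) factor of female 3 was 0.816, with 0.993 to 1.07 in the others, and ribosomal protein genes took 0.692% of its counts, against 1.34 to 1.72% in the others. B cell markers summed to 2322, 2265 and 2454 CPM in females 1 to 3 and to 2473, 2236 and 2472 CPM in males 1 to 3, most of it Ms4a1 (CD20) and Pax5. Cd79a, Cd79b and Blk were low in female 3, Cd79b at 5.20 CPM against 22.3 to 51.9 CPM in the others. Summed markers of T cells, NK cells, neutrophils, dendritic cells, erythroid cells and platelets were at most 9.53 CPM in any library, with the NK genes Ncr1 and Nkg7 at 0 counts in all 6. Of the T cell genes tested, Cd3d was higher in every female (2.32 to 4.54 CPM) than in every male (0.476 to 2.00 CPM), while Cd8a and Lck overlapped. The 7 monocyte and macrophage markers summed to 7.21, 12.2 and 6.23 CPM in females 1 to 3 and to 2.40, 1.72 and 2.06 CPM in males 1 to 3. Of the 5 of these that were tested, 4 were higher in every female than in every male (Lyz2, Emr1, now Adgre1, Spic and Msr1). Among these 5, edgeR called 0 and DESeq2 called 3, beside 7 and 35 of all genes tested. Of all genes tested, 10.2% did not overlap between the sexes in either direction. Cd68, also tested, overlapped, with 0.906, 0.710 and 0.197 CPM in females and 0.823, 0.515 and 0.479 CPM in males. Csf1r, which was not tested, was at or below 0.137 CPM in every library. The part of these cells in the values below was not tested.

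**Figure D2:**
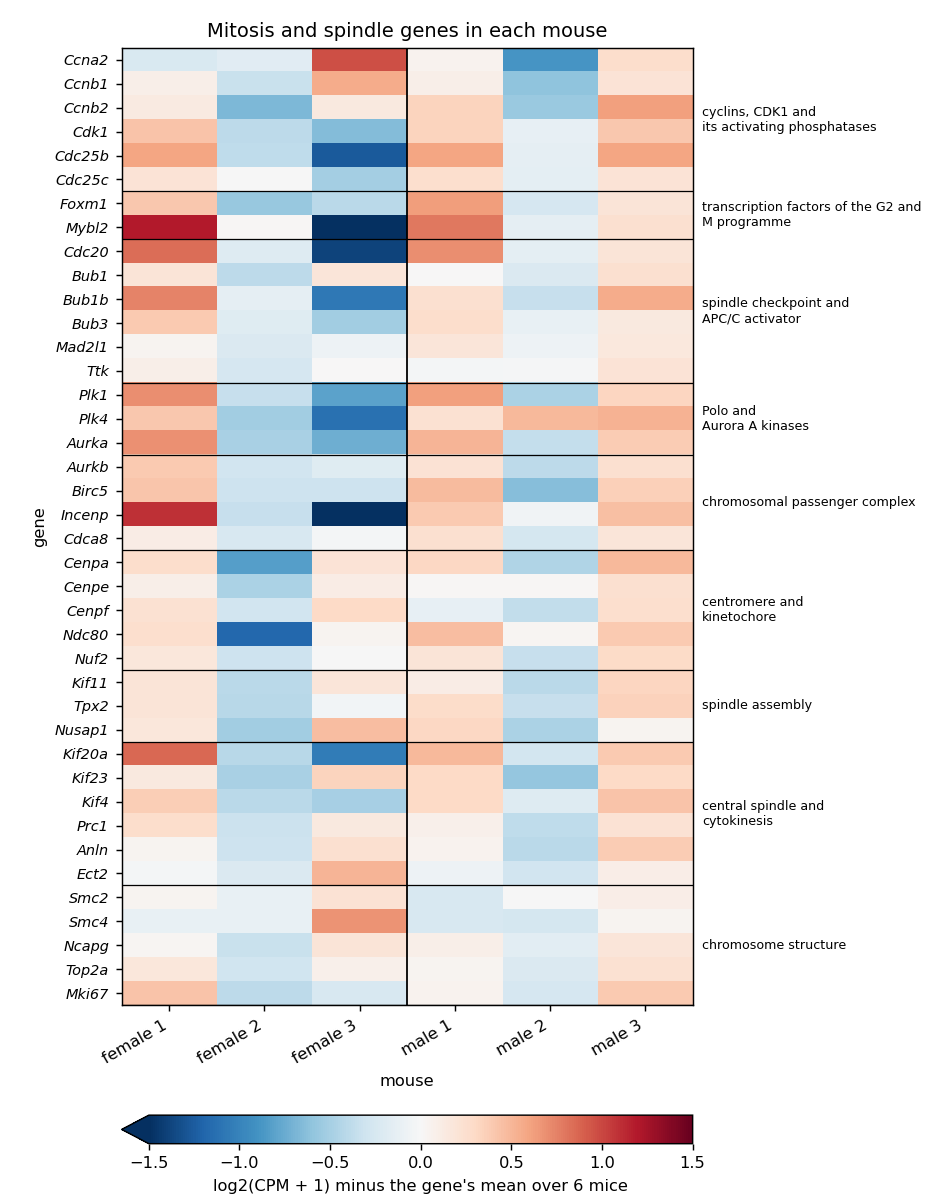
Log2(CPM + 1) of each member in each mouse minus that gene's mean over the 6 mice, in the order of their roles; red is above the mean and blue below, and the scale ends at 1.5 in either direction, which the values of Mybl2 and Incenp in female 3 pass. Female 2 and male 2 are blue in most of the rows, while female 3 is dark blue in some and red in others.

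Among the genes of mitotic entry, cyclins A2 and B1 led per kilobase of transcript, at 159 and 78.2 CPM, ahead of Cdk1 (22.1), Ccnb2 (9.54), Cdc25c (4.27) and Cdc25b (3.10). Ccna2, which encodes cyclin A2, had 373, 386 and 852 CPM in females 1 to 3, against 453, 237 and 523 CPM in males 1 to 3 (log2 fold change 0.62 ± 0.47, SE). Ccnb1, for cyclin B1, had 201, 149.7 and 278 CPM in females, against 199.9, 123 and 217 CPM in males (0.40 ± 0.34). In both genes female 3 was highest and male 2 lowest. Without female 3 the log2 fold changes were -0.07 and -0.03, so their positive sign rested on that library. Ccnb2 had 15.4, 8.31 and 15.5 CPM in females, against 17.7, 9.07 and 21.7 CPM in males (-0.15 ± 0.40), where female 2 and male 2 were the low pair. Cdc25b, a phosphatase that removes the inhibitory phosphates from CDK1, went the other way in female 3. It had 13.4, 6.35 and 2.99 CPM in females, against 13.5, 7.75 and 13.5 CPM in males (-0.55 ± 0.46, and -0.23 without female 3). Cdk1, the kinase itself, had 125, 70.2 and 58.5 CPM in females, against 117, 85.3 and 123 CPM in males (-0.26 ± 0.25), with female 1 and male 3 highest and female 3 lowest. The related phosphatase gene Cdc25c lay between 5.45 and 9.90 CPM.

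The transcription factors of the programme were scarce as transcripts. Foxm1 had 13.4, 6.33 and 7.23 CPM in females 1 to 3, against 15.8, 8.18 and 11.5 CPM in males 1 to 3 (-0.29 ± 0.35). Mybl2, which encodes B-MYB, had 17.7, 7.32 and 0.897 CPM in females, against 13.2, 6.46 and 8.69 CPM in males (-0.11 ± 0.78). Its lowest and highest values both came from females and lay 19.8-fold apart, the widest range of the 40. Its standard error was also the widest. Divided by the length of the longest coding transcript, Foxm1 and Mybl2 had the lowest levels of the set, at 2.24 and 2.48 CPM per kilobase, below Cdc20 (3.05) and Cdc25b (3.10).

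Spindle checkpoint genes differed in how far they varied between mice, Bub1, Mad2l1 and Ttk least. Bub1, a kinase that recruits the checkpoint to kinetochores, had 441, 293 and 439.6 CPM in females 1 to 3, against 387, 331 and 455 CPM in males 1 to 3 (0.16 ± 0.24). Mad2l1, for the MAD2 protein that holds back CDC20, had 359.8, 301 and 331 CPM in females, against 397, 333 and 392 CPM in males (-0.03 ± 0.16). Female 2 was lowest for both. Bub1b, which encodes BUBR1, ran from 60.5 CPM in female 3 to 214 CPM in female 1, and Bub3, the partner of BUB1 and BUBR1, from 25.1 to 48.4 CPM in the same mice. Ttk, for the kinase MPS1 that starts checkpoint signalling, stayed between 85.1 and 117 CPM. Cdc20, the activator of the anaphase-promoting complex that the checkpoint restrains, lay between 1.20 CPM in female 3 and 9.31 CPM in female 1.

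The 3 Polo and Aurora A kinases all had log2 fold changes below 0, among them the lowest of the 40, that of Plk4. Plk4, which sets the number of centrioles, had 59.0, 30.6 and 20.0 CPM in females 1 to 3, against 52.3, 62.5 and 64.0 CPM in males 1 to 3. Females 2 and 3 lay below every male, while female 1 lay within their range. Its log2 fold change of -0.63 ± 0.30 had an unadjusted p of 0.0711 and an adjusted p of 0.999 in edgeR's quasi-likelihood test. Left without female 1, it was -1.04, with an adjusted p of 0.251 (edgeR), the smallest of any member in any of the fits run. Aurka, for the kinase that matures centrosomes, had 23.9, 10.0 and 8.34 CPM in females, against 21.0, 11.0 and 19.1 CPM in males (-0.19 ± 0.39). Plk1, which acts at centrosomes, kinetochores and the midbody, had 11.3, 4.98 and 3.36 CPM in females, against 10.7, 4.48 and 8.58 CPM in males (-0.20 ± 0.46). Female 1 and male 1 were highest for both of these kinases, and females 2 and 3 with male 2 were low. Without female 3 the log2 fold changes were -0.42 for Plk4, -0.02 for Aurka and 0.04 for Plk1.

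The chromosomal passenger complex, which corrects faulty attachments and later marks the cleavage plane, had similar levels per kilobase of transcript for Cdca8 (26.7 CPM), Aurkb (24.7) and Birc5 (20.8), and a lower one for Incenp (5.49). Birc5, for survivin, had 89.2, 53.3 and 53.4 CPM in females 1 to 3, against 92.5, 42.3 and 85.5 CPM in males 1 to 3 (-0.05 ± 0.31). Aurkb, the kinase of the complex, had 62.1, 38.6 and 41.6 CPM in females, against 55.2, 35.8 and 55.8 CPM in males (0.08 ± 0.23). Both were low in females 2 and 3 and lowest in male 2. Cdca8, for borealin, lay between 35.7 and 51.1 CPM, while Incenp, for the scaffold, spread from 4.64 CPM in female 3 to 33.7 CPM in female 1. Incenp therefore had a wider range across the same mice than its 3 partners.

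Per kilobase of transcript the kinetochore genes ran from Nuf2 (57.6 CPM) through Cenpe (32.8), Cenpf (24.3) and Cenpa (16.4) to Ndc80 (11.1). Cenpf, for a large protein of the outer kinetochore, had 311, 217 and 326 CPM in females 1 to 3, against 244, 205 and 317 CPM in males 1 to 3 (0.32 ± 0.26). Cenpe, for a kinesin that moves chromosomes to the spindle equator, had 273, 185 and 277 CPM in females, against 259.6, 260.2 and 304 CPM in males (-0.01 ± 0.22). Female 2 was low in both genes, and male 2 was low in Cenpf but beside male 1 in Cenpe. Without female 3 the log2 fold change of Cenpf was 0.05. Ndc80, the subunit that grips microtubules, had 27.6, 9.56 and 23.7 CPM in females, against 32.1, 23.4 and 30.5 CPM in males (-0.35 ± 0.39), and female 2 lay far below the rest. Without female 2 the log2 fold change of Ndc80 was 0.01. Its partner Nuf2 ranged from 108 to 167 CPM, and Cenpa, the histone variant that marks centromeres, from 12.5 to 32.5 CPM.

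The genes for spindle assembly repeated 1 pattern over mice. Kif11, the kinesin that pushes the poles apart, had 262, 172 and 260.1 CPM in females 1 to 3, against 247, 173 and 286 CPM in males 1 to 3 (0.13 ± 0.27). Nusap1, a microtubule bundler, had 201, 124 and 245 CPM in females, against 222, 128 and 184 CPM in males (0.27 ± 0.33). Tpx2, which activates Aurora A on the spindle, had 193, 126 and 164 CPM in females, against 204, 132 and 214 CPM in males (-0.05 ± 0.24). In each of these 3 genes female 2 was the lowest female and male 2 the lowest male, at nearly the same level.

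In the genes of the central spindle and cytokinesis male 2 was again low. Ect2, which activates RhoA at the cleavage furrow, had 218, 191 and 317 CPM in females 1 to 3, against 211, 182 and 239 CPM in males 1 to 3 (0.38 ± 0.28). Prc1, which cross-links the microtubules of the central spindle, had 178, 118 and 164 CPM in females, against 157, 113 and 173 CPM in males (0.20 ± 0.24). Kif4, a chromosome-bound kinesin and the X-linked member (chrX:100626065-100727271, GRCm38), had 99.3, 57.4 and 54.0 CPM in females, against 94.1, 67.0 and 103 CPM in males (-0.22 ± 0.24). Male 2 was the lowest male in all 3, while the lowest female was female 2 for Ect2 and Prc1 and female 3 for Kif4. Without female 3 the log2 fold changes were -0.03 for Ect2 and 0.01 for Prc1. Of the others, Kif20a ranged from 11.8 to 47.2 CPM, Kif23 from 46.1 to 88.0 CPM and Anln, for the furrow scaffold anillin, from 42.1 to 73.4 CPM. KIF20A and KIF23 are the kinesins that carry the passenger and centralspindlin complexes to the midzone. Kif20a overlaps Brd8 and Cdc23, Ccna2 overlaps Exosc9, Nusap1 overlaps Oip5, Aurka overlaps Cstf1, Prc1 overlaps Rccd1, and Ccnb2 and Kif4 have pseudogenes listed as genes of their own, so the counting could have split their reads.

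Chromosome structure genes held most of the counts of the set, 6565 ± 1130 CPM in females and 6198 ± 848 CPM in males (SD, n = 3 each). Top2a, for the topoisomerase that untangles sister chromatids, had 2152, 1552 and 2028 CPM in females 1 to 3, against 1967, 1651 and 2248 CPM in males 1 to 3 (0.12 ± 0.21). Smc4, a core subunit of condensin, had 1737, 1728 and 2992 CPM in females, against 1589, 1562 and 1916 CPM in males (0.54 ± 0.32). Smc2, its partner in the condensin ring, had 879, 794 and 992 CPM in females, against 725, 848 and 915 CPM in males (0.26 ± 0.21). Female 3 was highest for both condensin subunits, far above the rest for Smc4, and male 1 was lowest for Smc2. Without female 3 the log2 fold changes were 0.06 for Smc4 and 0.03 for Smc2. Mki67, whose Ki-67 protein coats mitotic chromosomes, had 1401, 798 and 886 CPM in females, against 1087, 877 and 1375 CPM in males (0.01 ± 0.24). Ncapg, a condensin regulatory subunit, lay between 472 and 677 CPM. Per kilobase of transcript, Smc4 was the highest of the set at 445 CPM, ahead of Top2a at 370.2, Ncapg at 162, and Smc2 and Ccna2 at 159 each.

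**Figure D3:**
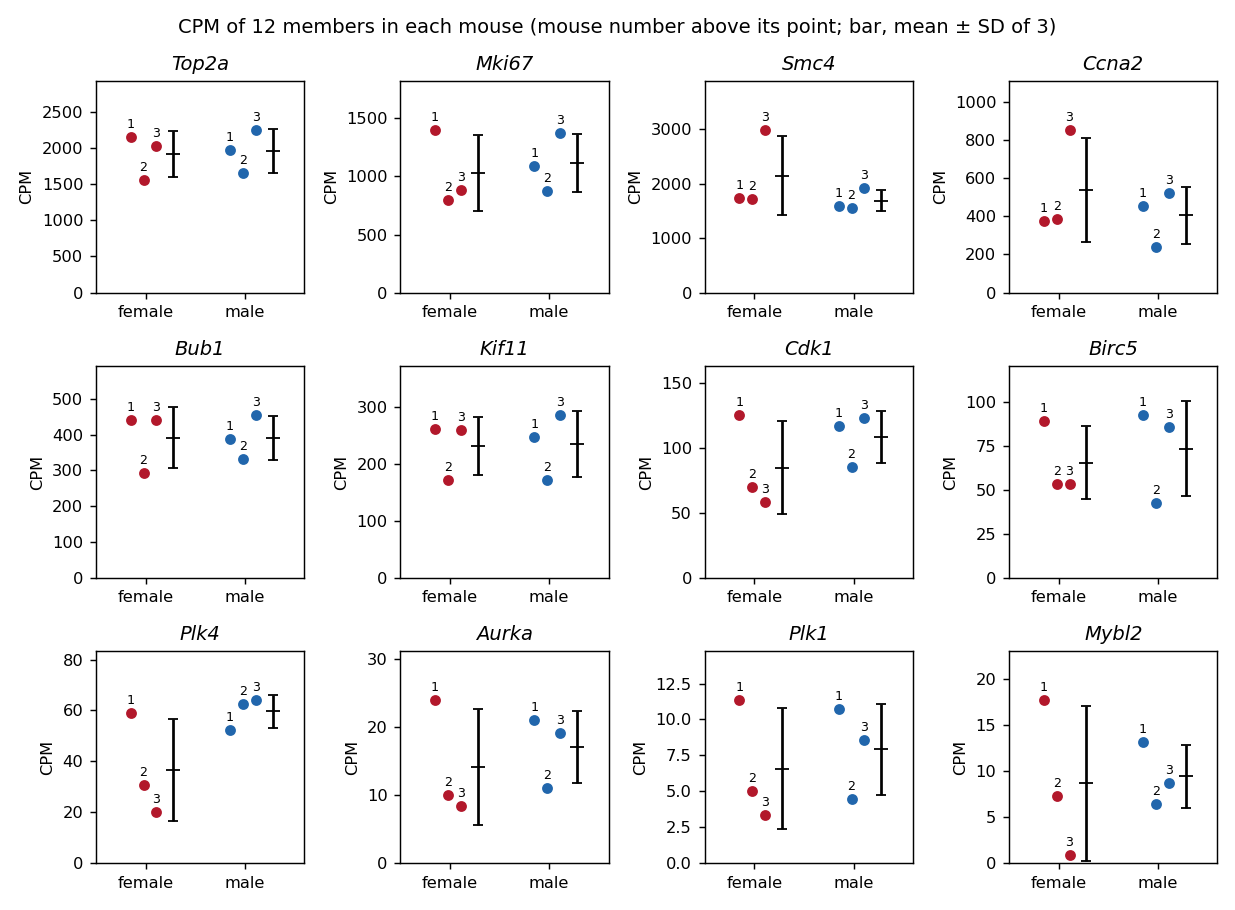
CPM of 12 members in each mouse, females (red) left of males (blue), with the mouse number above each point and the mean ± SD of 3 mice beside it; each panel starts at 0. Points 2 of both sexes sit low in most panels, and female 3 is the top point for Smc4 and Ccna2 and the bottom point for Cdk1, Plk4, Aurka, Plk1 and Mybl2.

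The members varied together across mice, as did some related genes. Over their 780 pairs, the Pearson correlation of log2(CPM + 1) across the 6 mice had a median of 0.62 (quartiles 0.29 and 0.85), beside 0.15 over all pairs of the 12172 genes. It was above 0 for 87.7% of the pairs of members and for 58.1% of all pairs. These are descriptions without a test, since every pair shares the same 6 libraries with their depth and base composition. The median by rank correlation (Spearman) was 0.60, beside 0.09 for all genes, and after centring each sex on its own mean it was 0.66, beside 0.15. Some related lists were near or above the members. The median was 0.73 for 22 genes of S phase and origin licensing and 0.63 for 14 subunits of the anaphase-promoting complex. It was 0.55 for 26 other spindle and cytokinesis genes. Lower medians were 0.47 for other regulators of mitotic entry and exit and 0.23 for other kinetochore and centromere genes. They were 0.10 for 12 other condensin and cohesin genes and -0.16 for 12 cell cycle repressors and inhibitors.

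Leaving out female 3 tightened the set and loosened the background. The median over the members was then 0.86 (98.6% of pairs above 0), beside 0.03 over all genes. The other spindle and cytokinesis genes had 0.79 (96.6% of pairs above 0), the regulators of entry and exit 0.64, the kinetochore list 0.41, the S-phase list 0.34 and the anaphase-promoting complex 0.06. The condensin and cohesin list had 0.31 and the list of repressors and inhibitors 0.01. When the trend with length and base composition of the transcript was removed within each library and all 6 mice were kept, the medians were 0.74 and 0.05. In that setting the median was 0.83 for the condensin and cohesin list, 0.68 for S phase and 0.63 for spindle and cytokinesis. It was 0.50 for the anaphase-promoting complex, 0.40 for entry and exit, 0.35 for the kinetochore list and 0.03 for repressors and inhibitors. Among the 5 mice without female 3, female 2 and male 2 were the lowest pair in 34 of 40 members (85.0%), beside 21.1% of all genes tested. Male 3 was among the 3 highest in 40 of 40, female 1 in 39 and male 1 in 35. Over all 6 mice, the first principal component of the members held 67.7% of their variance and was led by female 3 (0.69) against female 1 (-0.48). The second held 25.5%, with female 2 (-0.55) and male 2 (-0.52) against female 3 (0.56) and male 3 (0.32). Over the 5 mice without female 3, the first component held 82.6% of the variance. Female 2 (0.61) and male 2 (0.47) then lay on one side, and female 1 (-0.42), male 1 (-0.32) and male 3 (-0.34) on the other. The low pair holds 1 mouse of each sex, so this axis runs across the comparison of the sexes. Both mice carry the number 2, and the labels do not say whether same-numbered mice were handled together. The part of shared handling in this axis was not tested.

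**Figure D4:**
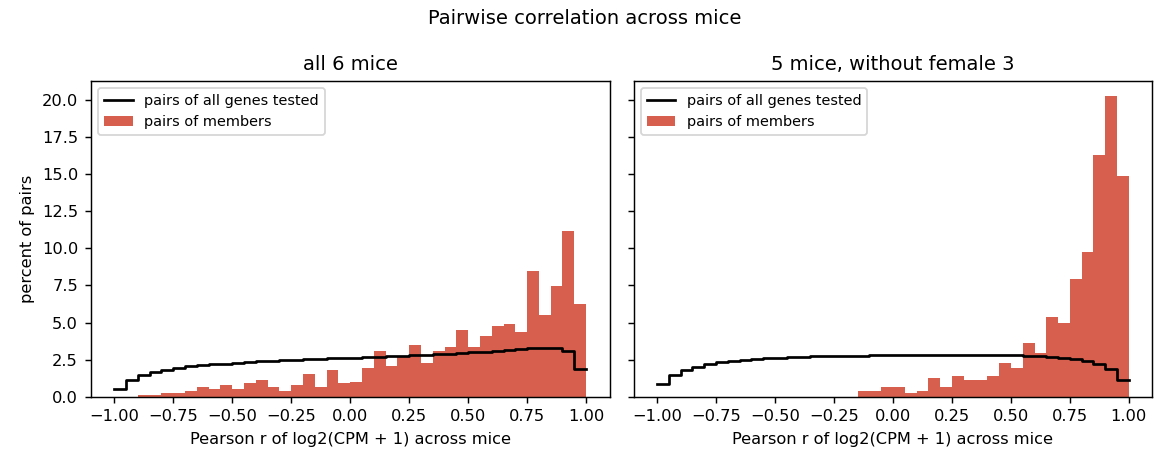
Distribution of the pairwise Pearson correlation of log2(CPM + 1) across mice, for all 6 mice (left) and for the 5 mice without female 3 (right), as percent of pairs in steps of 0.05; bars are the 780 pairs of members and the line is all pairs of genes tested. The bars crowd toward 1, more so on the right, while the line stays broad.

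The median deviation of the members from each gene's mean, on the log2(CPM + 1) scale, was 0.22, -0.33 and -0.02 in females 1 to 3 and 0.25, -0.26 and 0.26 in males 1 to 3. For the genes of S phase and origin licensing, a list chosen with results known, it was 0.24, 0.00 and -0.53 in females and 0.18, 0.07 and 0.05 in males. Female 2 and male 2 lay at or above the genes' own means, which the low female 3 pulled down. Leaving female 3 aside, female 2 was the lowest mouse. Its summed CPM on this list was 5533, against 5687 to 6121 in female 1 and the males, with male 2 at 5756. The totals of female 2 and male 2 were 29407229 and 27402953 counts, and the part of depth was not tested. Plasmablast and plasma cell markers summed to 377, 488 and 279 CPM in females and to 294, 318 and 275 CPM in males, so female 2 and male 2 had the highest sum of their sex. Members of that list differed. Irf4, which carries much of the sum, had 144, 225 and 123 CPM in females, against 111, 139 and 109 CPM in males. Xbp1, which carries much of the rest, had 124, 118 and 72.9 CPM in females, against 115, 122 and 104 CPM in males. It was highest in female 1 and male 2. Mzb1, a chaperone of antibody secretion, had 45.7, 32.7 and 9.89 CPM in females, against 37.5, 25.1 and 28.1 CPM in males, highest in female 1 and male 1. Igj was nearly level among males, at 17.1, 17.0 and 18.3 CPM, and higher in every female, at 37.7, 48.4 and 48.2 CPM. Its log2 fold change was 1.51 ± 0.22, with an adjusted p of 0.169 in edgeR's quasi-likelihood test. Of these 6 markers edgeR called 0 and DESeq2 called 2, beside 7 and 35 of all genes tested. Sdc1 was highest in female 1 and male 3. Prdm1, which encodes the BLIMP1 repressor of the plasma cell programme, had 22.1, 61.5 and 22.9 CPM in females, against 11.7, 12.8 and 12.9 CPM in males, and did not mark male 2 out from male 3. The part of these cells in the pattern of the mitotic genes was not tested.

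Members differed in how closely they followed the shared pattern. Kif4, Tpx2, Ccnb2 and Mki67 had the highest median correlation with the other members over 6 mice, 0.78, 0.78, 0.77 and 0.77. The lowest were Smc4 (0.03), Smc2 (0.12) and Ccna2 (0.24). Without female 3, Ccna2 reached 0.60 and Smc4 0.41, while Smc2 stayed at 0.18. The condensin member Ncapg did follow it, with 0.69 over 6 mice and 0.87 without female 3. Other cohesin and condensin genes, on a list of 12 tested, had median deviations of -0.15 in female 2 and 0.06 in male 2. Their means were pulled down by female 3, at -0.32. Lists outside condensin had similar values in female 2 and male 2: -0.15 and -0.07 for other kinetochore and centromere genes, and 0.01 and 0.05 for the anaphase-promoting complex. Of the members with printed promoters, Birc5 had a median correlation of 0.75 with neither motif, and Smc2 had 0.12 with 2 CHRs and 1 CCAAT box.

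Female 3 split the set by base composition. Its deviation from the mean of the other 5 mice had a Spearman correlation of -0.64 with the GC content of the transcript over the 40 members, and of -0.57 over 12022 genes; both are across genes, which are not independent replicates. All 9 members with a GC content of 51% or more lay below the other mice, with a median of -0.97 on the log2(CPM + 1) scale, beside -0.66 for all 4291 tested genes in that range. The lowest were Mybl2 (-2.53), Incenp (-1.84), Cdc20 (-1.67) and Cdc25b (-1.52). Of the 7 members with a GC content under 42%, 6 lay above the other mice, with a median of 0.26, beside 0.17 for the 1723 genes of that range. Ccna2 (1.16) and Plk4 (-1.34) lay far from the medians of their GC ranges, -0.21 and -0.02. With transcript length the correlation over the members was 0.15.

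**Figure D5:**
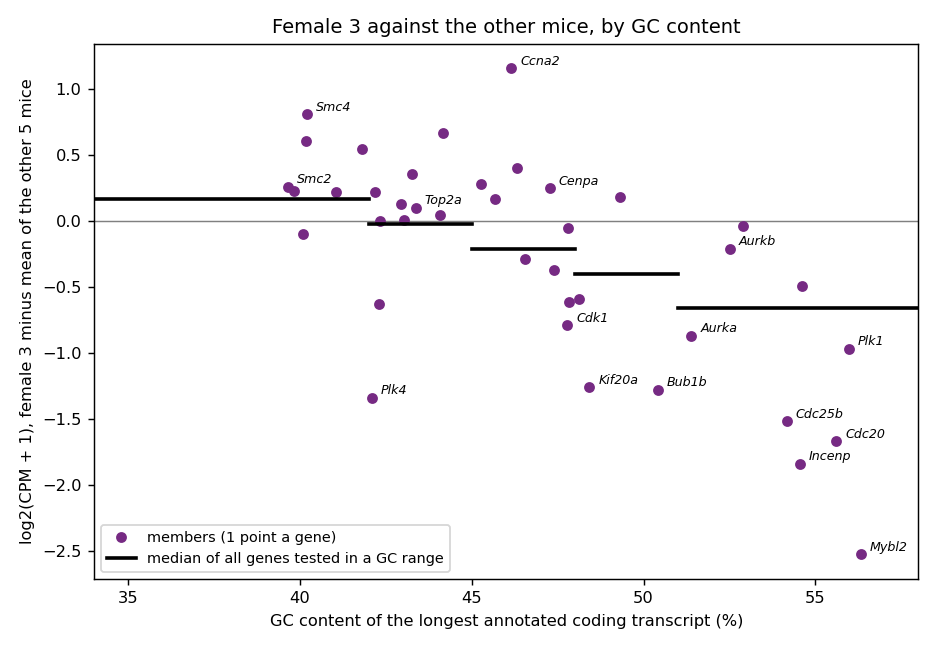
Deviation of female 3 from the mean of the other 5 mice, as log2(CPM + 1), against the GC content of the longest coding transcript; purple points are the 40 members and black lines the medians of all genes tested in 5 ranges of GC content. Points fall from left to right, to -2.53 for Mybl2, in the direction of the black lines.

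Genes of the wider machinery were not called between the sexes either. The lists used were chosen with earlier results known and hold genes outside the set. Of 33 other kinetochore and centromere genes, 26 other spindle and cytokinesis genes, 17 other regulators of entry and exit, 12 condensin and cohesin genes, 14 subunits of the anaphase-promoting complex, 22 S-phase genes and 12 cell cycle repressors and inhibitors that were tested, 0 were called and 0 had an unadjusted p under 0.05 by edgeR. DESeq2 and limma-voom called 0 of them, and the only one of them at an unadjusted p under 0.05 by either tool was Lin54 with DESeq2. The median log2 fold changes of these lists, female over male, lay between -0.04 and 0.15, beside 0.00 for all genes. The gene with the smallest p on any of them was Lin54, for the DNA-binding subunit of MuvB that reads the CHR, with 94.6, 109 and 138 CPM in females 1 to 3, against 93.4, 58.3 and 96.2 CPM in males 1 to 3. Its log2 fold change was 0.64 ± 0.29, with an adjusted p of 0.999 in edgeR's quasi-likelihood test. Hjurp, the chaperone that loads CENP-A, led the kinetochore list with 211, 144 and 123 CPM in females, against 204, 204 and 231 CPM in males (-0.30 ± 0.16). Pttg1, for securin, had 16.3, 9.24 and 5.88 CPM in females, against 18.6, 11.5 and 16.7 CPM in males (-0.49 ± 0.34), and Kif20b, a kinesin of cytokinesis, had 107, 102 and 161 CPM in females, against 93.2, 97.9 and 119.8 CPM in males (0.43 ± 0.28). Female 3 was thus lowest in Pttg1 and highest in Kif20b. Without female 3 the log2 fold change was 0.03 for Kif20b and 0.32 for Lin54. On the condensin list Ncaph had 105, 69.0 and 53.2 CPM in females, against 102, 97.1 and 94.8 CPM in males (-0.27 ± 0.18). Gins2, of the replicative helicase, had 13.1, 11.5 and 10.0 CPM in females, against 10.9, 8.35 and 11.1 CPM in males (0.32 ± 0.22). Anapc4, of the anaphase-promoting complex, had 94.0, 96.4 and 103.8 CPM in females, against 88.7, 102.5 and 90.4 CPM in males (0.22 ± 0.17), and its log2 fold change was 0.04 without female 3. Female and male values overlapped in each of these genes. Of the 136 genes tested on these lists, 3 did not overlap between the sexes (2.21%, beside 10.2% of all genes tested), and they are named after their values were seen: Cenpu at 33.5 to 38.3 CPM in females and 31.8 to 32.8 CPM in males, Cenpc1 at 149 to 166 CPM in females and 172 to 220.3 CPM in males, and Anapc5 at 9.56 to 13.8 CPM in females and 13.9 to 14.8 CPM in males.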

How the data were processed

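RNA of 6 cultures was sequenced, 1 per mouse. The deposited table holds estimated counts per gene, with a column for each mouse. The submitters' processing notes name kallisto, DESeq2 and the build GRCm38.p6, and the sources used here give no versions or settings. The authors' expected counts have totals that differ between mice, and were rounded to whole numbers before testing. CPM were computed from the column totals, and correlations use log2(CPM + 1). Counting limits cover counting error only. The labels describe each library as a separate mouse.

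Females were compared with males in edgeR 4.0.16 (R 4.3.3) with filterByExpr, TMM factors and the quasi-likelihood test, with no covariate beside sex and Benjamini-Hochberg adjustment over 12172 genes; the common biological coefficient of variation came to 0.351. A standard error is the log2 fold change divided by the square root of F. Alternatives were DESeq2 1.42.0, limma-voom (limma 3.58.1), library totals only, upper-quartile and RLE factors, no filter, at least 1 CPM in 3 libraries, a replicate block, removal of a length and GC trend (splines of 4 degrees of freedom, 98.8% of tested genes) and each library left out. Correlations were also computed with pseudocounts of 0.5 and 5. The fits and the correlation were tested on simulated data. Transcript length and GC content are from the longest coding transcript of GENCODE M21, and coordinates are on GRCm38.

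The members, the other lists and the rule for named genes were chosen with earlier results of these data known. The rule names, in each role, the 2 members highest in CPM, the 3 largest log2 fold changes in each direction, the 3 highest and 3 lowest median correlations, and the gene with the smallest p on each other list. Mki67, Plk1 and Cdk1 are given in full beside them, a choice made after seeing their values, like the GC ranges. Figures were drawn with matplotlib 3.10.9.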

Additional observations from a re-analysis of the deposited data

How the results depend on the processing

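No member was called under any of the 15 alternatives to the comparison of the sexes. The count of genes called, 7, became 35 with DESeq2, 11 with no low-count filter, 11 with the length and GC trend removed, and 4 (without female 2, male 1 or male 2) to 12 (without female 1 or female 3) with 1 library left out. Without female 1, 6 members had an unadjusted p under 0.05 in edgeR: Cdc25b, Cdk1, Incenp, Kif20a, Plk4 and Smc4. Their adjusted p in edgeR's quasi-likelihood test was 0.251 for Plk4 and 0.405 for each of the others. The share of all genes under 0.05 in that fit was not counted, so these 6 are not set against a background. The members' median log2 fold change, -0.02, ran from -0.14 to 0.16 with 1 library left out. Their median correlation, 0.62, was 0.74 once that trend was removed and 0.57 to 0.86 with 1 library left out, 0.86 without female 3.

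The sign of a log2 fold change, female over male, changed in at least 1 alternative for 30 of the 40 members. With 1 library left out, values ran from -0.07 to 0.89 for Ccna2, -0.03 to 0.64 for Ccnb1, -0.45 to 0.12 for Ccnb2, -1.09 to 0.40 for Mybl2, -0.09 to 0.36 for Bub1, -0.17 to 0.07 for Mad2l1, -0.33 to 0.14 for Birc5, -0.10 to 0.23 for Aurkb, -0.26 to 0.19 for Cenpe, -0.64 to 0.01 for Ndc80, -0.11 to 0.34 for Kif11, -0.13 to 0.54 for Nusap1, -0.24 to 0.13 for Tpx2, -0.03 to 0.58 for Ect2, -0.07 to 0.28 for Top2a, -0.72 to 0.07 for Plk1 and -0.17 to 0.19 for Mki67. The sign turned without female 3 for 22 members, of which those described in full are Ccna2, Ccnb1, Mybl2, Bub1, Plk1, Kif11, Nusap1, Ect2, Top2a and Mki67. Without female 2 it turned for 10 members and without female 1 for 3, and without male 1, 2 or 3 for 10, 7 and 7. Without female 3, values near 0 were also left for Smc4 (0.06), Smc2 (0.03), Cenpf (0.05), Prc1 (0.01) and Kif20b (0.03). Cenpe became 0.01 with DESeq2 and with RLE factors. With library totals only, Aurkb became -0.05, Kif11 -0.02, Top2a -0.03 and Mki67 -0.11. With the length and GC trend removed, Kif11 became -0.03, Top2a -0.02, Mki67 -0.08 and Ccnb2 0.04, and with upper-quartile factors Mki67 became -0.01. The cause was not tested.

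With the replicate number as a block, 7 genes and 0 members were called, the members' median was -0.02 and Birc5 became 0.00. Over all genes tested, deviations of same-numbered mice correlated at 0.222, 0.0423 and 0.0695. These values cannot decide whether the numbers mark pairs, since they cover all genes and the labels name no pairs. The main comparison used sex alone. Among members the block took the standard error of Kif11 from 0.27 to 0.15 and of Ccnb2 from 0.40 to 0.23. That of Plk4 stayed at 0.30 and that of Mad2l1 at 0.16. Shared handling of same-numbered mice was not tested. A library left out leaves 2 mice in its sex.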
